A study of Homo sapiens with 6 samples.

Results

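Histone methyltransferases and demethylases are the enzymes that add methyl groups to lysines of the histone tails and take them off again. Genes were taken by symbol from the deposited FPKM table: every name without a hyphen that starts with KDM, KMT, SETD, NSD, EZH, EHMT or SUV39H followed by a digit. This gave 43 of the 11187 listed genes, 26 of them methyltransferases or related SET-domain genes and 17 demethylase (KDM) genes. They were measured by RNA sequencing in AGS cells, an established epithelial line from a human gastric adenocarcinoma, transiently transfected either with miR-3648 mimics (3 libraries) or with NC, which the study used as its control (3 libraries). All 6 libraries come from this 1 cell line and from total RNA. The labels do not say whether replicates were separate cultures, so each p-value speaks only to how far these libraries spread, and that spread may be technical.

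Methylation of histone lysines marks the state of chromatin. Methylation of H3K4 lies at promoters and enhancers, that of H3K36 along transcribed gene bodies, that of H3K27 at genes silenced by Polycomb, that of H3K9 in heterochromatin and that of H4K20 marks chromosomes in mitosis and compacted chromatin. Most of the writers carry a SET domain. The erasers are either flavin-dependent (KDM1A and KDM1B) or belong to the JmjC family, which uses iron and oxoglutarate. Genes of writers and erasers alike are recurrently altered in cancers.

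The mature miR-3648 and the matches to its seed in these genes are shown first, since the microRNA is what separates the groups. RefSeq places hsa-miR-3648 (gene MIR3648-2) at chr21:8987026-8987046 on the plus strand of GRCh38.p14. The capitals mark the seed, bases 2 to 8.
hsa-miR-3648: aGCCGCGGggaucgccgaggg
The labels do not give the sequence of the transfected mimics. The 2 words of 7 letters taken as matches to that seed are CCGCGGC (7mer-m8) and CGCGGCA (7mer-A1), which overlap by 6 letters. CCGCGGC pairs with bases 2 to 8. CGCGGCA pairs with bases 2 to 7 and has an A opposite base 1. Both words were searched on the sense strand of GENCODE v29 transcripts, in the longest 3' UTR and the longest coding sequence of each gene. Among the 41 genes tested below, KDM4B and KDM6B carried 1 match each in the 3' UTR (4.88%, against 2.11% of 10213 tested genes with a sequence). The KDM4B match lies in exon 24 at chr19:5153479-5153485 on the plus strand of GRCh38, and that of KDM6B in exon 22 at chr17:7854242-7854248, also on the plus strand. A coding match was found in 11 of the 41 (26.8%, against 14.3% of tested genes). The median coding sequence was longer in the 41 genes, at 3897 nucleotides, than over all tested genes, at 1389. KDM4B had 3 coding matches, KMT2A, KMT2B and EHMT1 had 2 each, and KDM1A, KDM2B, KDM3B, KDM5A, KDM7A, KMT5C and SETD6 had 1 each. Of these 11 genes 10 had negative log2 fold changes (mimics minus NC), from -0.30 for EHMT1 to -0.013 for KMT5C, and KDM7A had 0.10. Over all tested genes, 1032 of the 1457 with a coding match were negative too. Among the 41 genes, those with a coding match averaged 53.9% GC, against 49.7% for those without. With the correction for GC content given below, KDM2B, KMT5C and SETD6 came to 0.031, 0.15 and 0.052, and KDM7A to -0.038. An A follows CCGCGGC in some of the coding matches, which makes an 8mer. Those of KDM4B (chr19:5039860-5039866 in exon 4 and chr19:5041147-5041153 in exon 5, plus strand), KDM7A (chr7:140176882-140176888 in exon 1, minus strand) and EHMT1 (chr9:137782351-137782357 in exon 15, plus strand) are shown on GRCh38 as examples from genes of both directions, chosen after their values were seen. Capitals mark the match below.
KDM4B 3' UTR: tgcaaagaCGCGGCAaaacccag
KDM6B 3' UTR: ccgtccgcCCGCGGCtccagccg
KDM4B coding, exon 4: agtggaagCCGCGGCagacgtat
KDM4B coding, exon 5: actgtaccCCGCGGCaccaggac
KDM7A coding, exon 1: tggagccgCCGCGGCagccgtgt
EHMT1 coding, exon 15: actgcacgCCGCGGCagaggctg
A match is a string of letters and not a shown binding site.

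FPKM divides the fragments of a gene by its length and by the size of the library, so levels can be set side by side between genes. The depth of the libraries is unknown, and no counting interval is given. The cells showed the markers of an epithelium: KRT18, EPCAM, KRT8 and KRT19 were between 146 and 326 FPKM in all 6 libraries, and CLDN4 lay between 0.841 and 8.55 FPKM. Of the other markers checked, 1 of 5 fibroblast, 3 of 5 leukocyte and 0 of 4 endothelial genes were listed, with summed levels of 0.940 to 0.998, 5.69 to 6.10 and 0 FPKM in mimics libraries and 1.07 to 1.48, 6.98 to 8.05 and 0 FPKM in NC libraries. NC replicate 3 stood apart from the other NC libraries. Over the 41 genes its log2(FPKM + 1) values had a mean Pearson's r of 0.969 with the mimics libraries and of 0.945 with NC replicates 1 and 2. NC replicates 1 and 2 had 0.972 with each other, and the mimics libraries had a mean of 0.968 among themselves. Over all 10286 tested genes these 4 values were 0.979, 0.967, 0.982 and 0.984, in the same order. Whether the place of NC replicate 3 lies with the library or with its label cannot be told apart from the table. This bears on the NC values and on the calls made without it. Values without it are given for the named genes whose call changes, and for all 41 genes in the plot of fold changes by role.

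The levels spanned from 0.668 FPKM for KDM4D to 36.9 FPKM for KDM1A, as means over the 6 libraries, with a median of 5.55 FPKM against 6.55 FPKM over all listed genes. KDM1A (LSD1, the flavin-dependent eraser of H3K4 mono- and dimethylation) was the most abundant in both groups. It was followed by EZH2, the catalytic subunit of Polycomb repressive complex PRC2, at 17.4 FPKM, and by SETD3, which methylates a histidine of actin, at 15.7 FPKM. Their paralogs were lower, with KDM1B at 5.32 ± 0.25 FPKM in mimics and 5.63 ± 0.918 FPKM in NC libraries, and EZH1 at 3.31 ± 0.228 FPKM in mimics and 3.21 ± 0.385 FPKM in NC libraries (SD, n = 3 each). KDM8 and KDM4D were the 2 genes below a mean of 1 FPKM. KDM8 read 1.19, 0.903 and 0.784 FPKM in mimics libraries and 0.935, 1.29 and 0.771 FPKM in NC libraries. KDM4D read 0.701, 0.532 and 0.677 FPKM in mimics libraries and 0.556, 0.800 and 0.740 FPKM in NC libraries. Neither was separated by group, with exact two-sided permutation p of 0.8 for KDM8 and 0.5 for KDM4D (n = 3 each, smallest possible p 0.1).

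**Figure D1:**
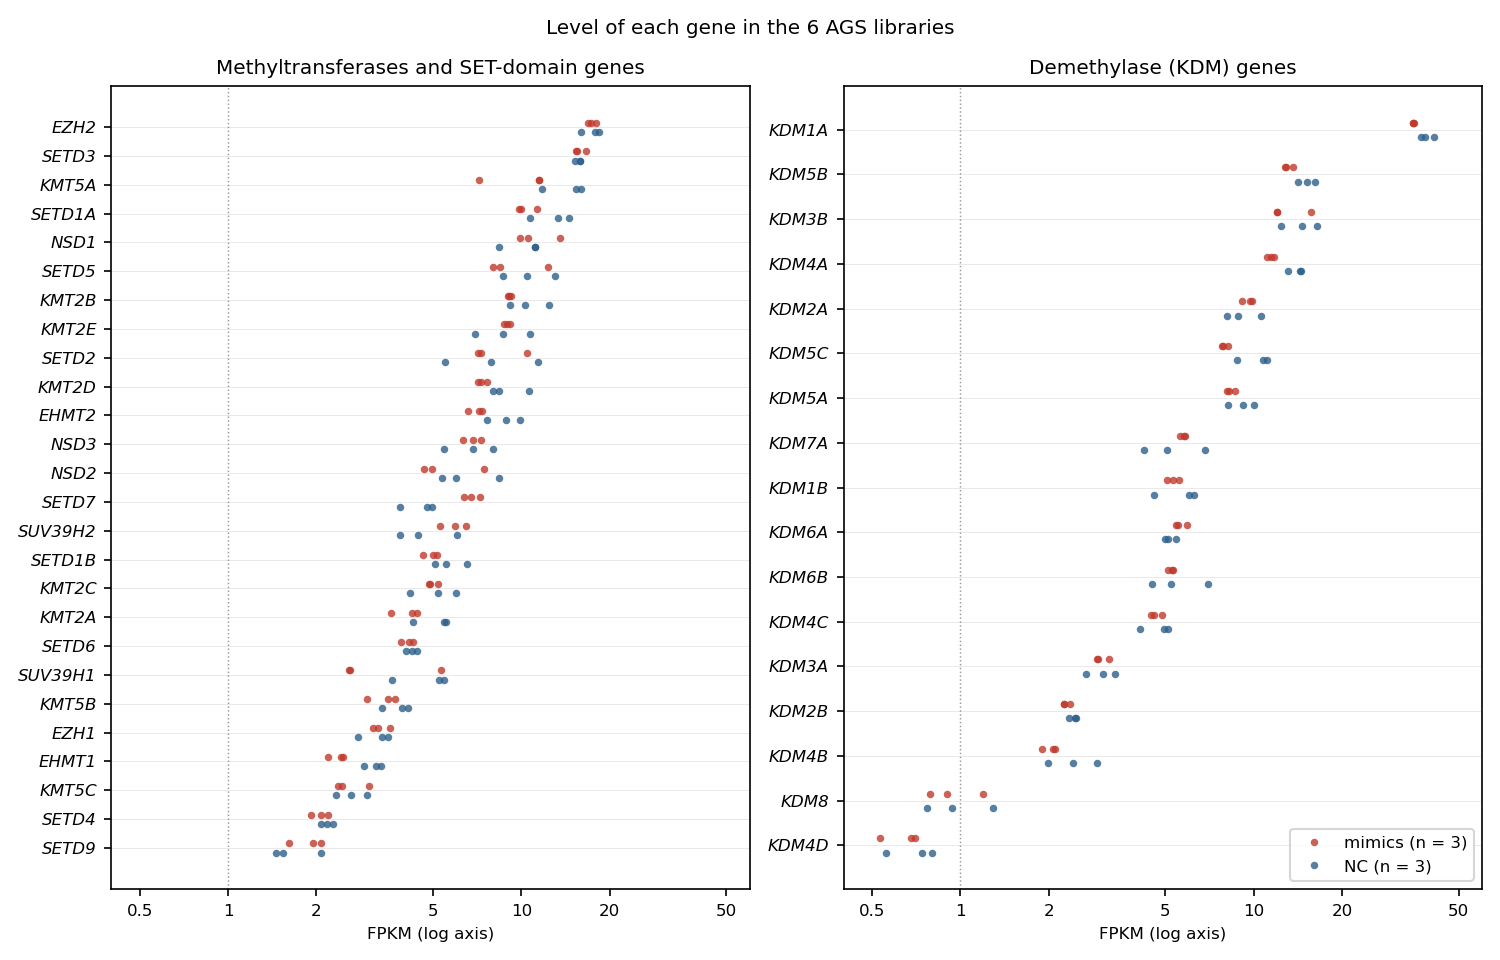
FPKM of the 43 genes on a log axis, 1 point per library, mimics in red above NC in blue, ordered by the mean over the 6 libraries; the dotted line is 1 FPKM, the lower limit for testing. KDM1A lies to the right of all others, and KDM8 and KDM4D lie around or below the dotted line.

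None of these genes changed past the threshold when mimics were set against NC, the comparison the study's design names. The 41 genes with a mean of at least 1 FPKM were tested with limma on log2(FPKM + 1), with Benjamini-Hochberg adjustment over all 10286 genes tested. At an adjusted p of 0.05, 0 of 41 passed, against 0.408% of all tested genes (0.233% higher and 0.175% lower). At an unadjusted p under 0.05 there were 7 of 41 (17.1%), against 14.6% of all tested genes. The fold changes were small, from -0.49 for KMT5A to 0.50 for SETD7 on the log2 scale, and 16 of the 41 lay within 0.1 of 0. Of the 41, 28 were lower and 13 higher in mimics libraries, against 5247 lower and 5039 higher of all tested genes. The median of the 41 was -0.06, against -0.0046 over all tested genes. The groups did not overlap in 9 of 41 genes (22%), against 22.2% of all tested genes. By direction, all 3 mimics values lay below all 3 NC values in 8 genes (19.5%, background 13.5%) and above them in 1 (2.44%, background 8.68%).

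Without NC replicate 3, 6 of the 41 genes passed (14.6%), against 14.8% of all tested genes. SETD7 was higher in mimics libraries there, as were 7.76% of all tested genes, and KDM4A, SETD1A, KDM5C, EHMT1 and EHMT2 were lower. Leaving out any other single library gave 0 of 41. The 5 lower genes were 12.2% of the 41, where 7.09% of all tested genes were lower.

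**Figure D2:**
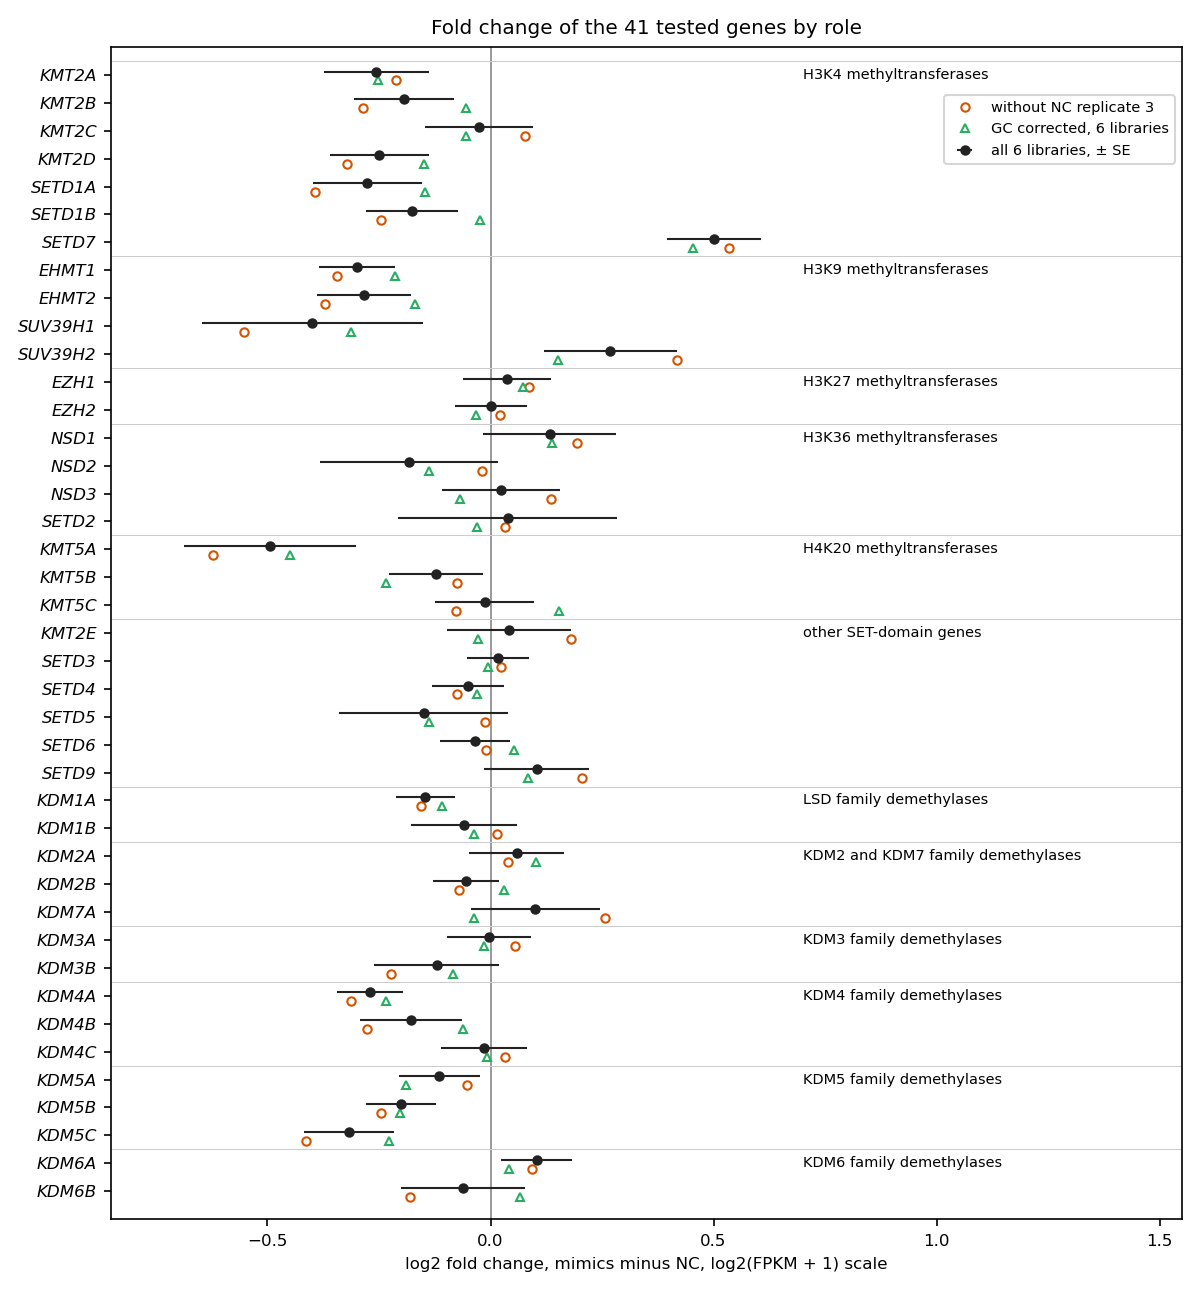
Log2 fold change (mimics minus NC, log2(FPKM + 1) scale) of the 41 tested genes, grouped by role; black points with bars are limma estimates ± SE over all 6 libraries, open circles the fit without NC replicate 3 and open triangles the fit with correction for GC content. SETD7 stands at 0.50 on the right, KMT5A at -0.49 on the left, and 5 of the 41 black points lie 0.3 or more from 0.

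Among writers of H3K4, SETD7 was the exception in direction. SETD7 adds a single methyl group to H3K4 and also methylates many proteins that are not histones. It was at 6.38, 6.76 and 7.25 FPKM in mimics libraries, against 4.96, 3.85 and 4.77 FPKM in NC libraries. All mimics values lay above all NC values, and NC replicate 3 lay within the range of the other NC libraries. The log2 fold change was 0.50 (SE 0.11, 95% interval 0.25 to 0.75), and it had the smallest p of the 41 genes (limma adjusted p = 0.15). The adjusted p was 0.039 without NC replicate 3 and 0.065 with correction for GC content, and it ranged from 0.039 to 0.45 over the alternatives. SETD7 (ENSG00000145391.13_2) lies at chr4:140417095-140527853 on the minus strand of GRCh37, and no other listed gene overlaps it.

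The 6 catalytic subunits of the COMPASS family (KMT2A to KMT2D, SETD1A and SETD1B), large complexes that write H3K4 methylation, all had negative fold changes, with a median of -0.22, and 0 of 6 passed. With a correction for the GC content of transcripts the median was -0.10. Their transcripts averaged 56.9% GC, and 71.0% of all tested genes above a GC content of 49.1% were lower in mimics libraries. Those of KMT2A and KMT2C lay below that bound, at 46.9% and 45.0% GC, where 31.0% of all tested genes were lower. SETD1A, which with SETD1B forms the complexes that write most H3K4 trimethylation, was at 9.99, 9.81 and 11.3 FPKM in mimics libraries and at 14.5, 13.3 and 10.7 FPKM in NC libraries. Only NC replicate 3 overlapped the mimics range. The log2 fold change was -0.28 (SE 0.12, limma adjusted p = 0.36), against -0.39 without NC replicate 3 (adjusted p = 0.040) and -0.15 with GC correction (adjusted p = 0.42).

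KMT2D, the writer of H3K4 monomethylation at enhancers and a tumour suppressor in several cancers, was at 7.30, 7.12 and 7.65 FPKM in mimics libraries and at 10.6, 8.42 and 7.98 FPKM in NC libraries. The groups did not overlap, with NC replicate 3 the NC library nearest to the mimics (log2 fold change -0.25, SE 0.11, limma adjusted p = 0.36). It was -0.15 with GC correction and -0.14 without NC replicate 1. KMT2D overlaps PRKAG1 on the same strand at its end, where reads could be exchanged. Its close relative KMT2C, which shares that role, was at 4.97 ± 0.194 FPKM in mimics and 5.12 ± 0.917 FPKM in NC libraries (SD, n = 3), with a log2 fold change of -0.03 (95% interval -0.31 to 0.26).

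KMT2A (MLL1), the mixed-lineage leukaemia gene, was at 4.23, 3.59 and 4.42 FPKM in mimics libraries and at 5.53, 4.26 and 5.44 FPKM in NC libraries. The groups overlapped through NC replicate 2, with a log2 fold change of -0.26 (SE 0.12, limma adjusted p = 0.37). With GC correction KMT2A was at -0.25 (limma adjusted p = 0.28). KMT2B, its closest paralog, was at 9.10 ± 0.123 FPKM in mimics and 10.6 ± 1.66 FPKM in NC libraries, and SETD1B at 4.92 ± 0.274 FPKM in mimics and 5.71 ± 0.733 FPKM in NC libraries (SD, n = 3 each). Their log2 fold changes of -0.19 and -0.18 came to -0.05 and -0.02 with GC correction.

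The summed level of the 6 COMPASS catalytic genes was 40.0, 39.8 and 42.6 FPKM in mimics libraries and 54.8, 46.0 and 44.4 FPKM in NC libraries. NC replicate 1 was the highest library, and NC replicate 3 lay nearest to the mimics.

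H3K9 writers lay in both directions. The pair EHMT1 (GLP) and EHMT2 (G9a), which work as a dimer and write H3K9 mono- and dimethylation, were both lower in mimics libraries. EHMT1 was at 2.46, 2.44 and 2.19 FPKM in mimics libraries and at 3.33, 3.20 and 2.90 FPKM in NC libraries. Its groups did not overlap, and the log2 fold change was -0.30 (SE 0.08, 95% interval -0.50 to -0.10, limma adjusted p = 0.22). The adjusted p was 0.041 without NC replicate 3 and 0.17 with GC correction, where the log2 fold change was -0.21.

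EHMT2 was at 6.56, 7.33 and 7.15 FPKM in mimics libraries and at 8.85, 9.90 and 7.63 FPKM in NC libraries. These groups did not overlap either, although NC replicate 3 lay close to mimics replicate 2. The log2 fold change was -0.28 (SE 0.11, limma adjusted p = 0.29), against -0.37 without NC replicate 3 (adjusted p = 0.041) and -0.17 with GC correction (adjusted p = 0.28). EHMT1 (ENSG00000181090.20_4) lies at chr9:140513415-140764468 on the plus strand of GRCh37 and EHMT2 (ENSG00000204371.11_2) at chr6:31847536-31865464 on the minus strand.

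SUV39H1 and SUV39H2, which write H3K9 trimethylation of heterochromatin, had opposite signs and wide spreads. SUV39H1 was at 2.58, 2.59 and 5.33 FPKM in mimics libraries and at 5.25, 5.46 and 3.63 FPKM in NC libraries. Mimics replicate 3 sat with NC replicates 1 and 2, and NC replicate 3 lay between the 2 levels. SUV39H2 was at 5.28, 6.48 and 5.94 FPKM in mimics libraries and at 4.46, 3.86 and 6.04 FPKM in NC libraries, where NC replicate 3 lay inside the mimics range. The log2 fold changes were -0.40 (SE 0.25) for SUV39H1 and 0.27 (SE 0.15) for SUV39H2, with limma adjusted p of 0.47 and 0.43. SUV39H1 came to -0.67 without mimics replicate 3 and to -0.26 without mimics replicate 1, and SUV39H2 to 0.42 without NC replicate 3 (adjusted p = 0.052) and to 0.15 without NC replicate 2. SUV39H2 overlaps DCLRE1C on the opposite strand. Whether the quantification used strand is not given in the sources used here, so reads of the pair may not have been told apart.

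The writers of H3K27 were level between the groups. EZH2 was at 18.0, 16.9 and 17.2 FPKM in mimics libraries and at 18.3, 15.9 and 17.9 FPKM in NC libraries, so the mimics values lay inside the NC range. Its log2 fold change was 0.0011 (95% interval -0.19 to 0.19), and that of EZH1 was 0.04 (95% interval -0.20 to 0.27). A pseudogene of EZH2 (EZH2P1) is annotated in GENCODE v29 and could share its reads.

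H3K36 writers varied more within groups than between them. SETD2, which writes H3K36 trimethylation behind the elongating polymerase, was at 7.29, 10.5 and 7.12 FPKM in mimics libraries and at 11.4, 5.51 and 7.86 FPKM in NC libraries. NC replicate 1 was 2.07 times NC replicate 2, and the log2 fold change was 0.04 (SE 0.25). NSD2 writes H3K36 dimethylation and is overproduced in a subset of myelomas. It was at 4.67, 4.95 and 7.45 FPKM in mimics libraries and at 5.97, 5.37 and 8.36 FPKM in NC libraries. Replicate 3 was the highest in each group, and the log2 fold change was -0.18 (SE 0.20), against -0.018 without NC replicate 3 and -0.36 without mimics replicate 3. The related NSD1, mutated in Sotos syndrome, was at 11.3 ± 1.94 FPKM in mimics and 10.2 ± 1.59 FPKM in NC libraries, and NSD3 at 6.83 ± 0.504 FPKM in mimics and 6.76 ± 1.27 FPKM in NC libraries (SD, n = 3 each).

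KMT5A, also called SET8, which alone writes H4K20 monomethylation and is needed in mitosis, had the lowest fold change of all. It was at 11.4, 7.18 and 11.5 FPKM in mimics libraries and at 15.3, 16 and 11.8 FPKM in NC libraries. The groups did not overlap, but mimics replicates 1 and 3 and NC replicate 3 lay within a narrow band, and the extremes were mimics replicate 2 and NC replicates 1 and 2. The log2 fold change was -0.49 (SE 0.19, 95% interval -0.95 to -0.04, limma adjusted p = 0.31). It was -0.62 without NC replicate 3 (adjusted p = 0.088) and -0.45 with GC correction (adjusted p = 0.27), but -0.29 without mimics replicate 2, the lowest library. KMT5B and KMT5C, which add further methyl groups to it, had log2 fold changes of -0.12 (SE 0.11) and -0.01 (SE 0.11). KMT5C overlaps AC020922.1 on the same strand.

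The other SET-domain genes all overlapped between groups, with log2 fold changes from -0.15 for SETD5 to 0.10 for SETD9. SETD3 was at 15.5, 15.4 and 16.6 FPKM in mimics libraries and at 15.2, 15.9 and 15.8 FPKM in NC libraries, with a log2 fold change of 0.02 (95% interval -0.15 to 0.18). KMT2E, an MLL relative without shown methyltransferase activity on H3K4, was at 8.94 ± 0.201 FPKM in mimics and 8.78 ± 1.87 FPKM in NC libraries. SETD5, a gene of intellectual disability, was at 9.60 ± 2.37 FPKM in mimics and 10.7 ± 2.18 FPKM in NC libraries, with replicate 3 the highest in each group. SETD6, which methylates the NF-kB subunit RELA, was at 4.10 ± 0.186 FPKM in mimics and 4.22 ± 0.182 FPKM in NC libraries (SD, n = 3 for each gene and group). SETD4 and SETD9 were low, with log2 fold changes of -0.05 (SE 0.08) and 0.10 (SE 0.12). The 95% intervals were wide for KMT2E, from -0.29 to 0.37, and for SETD5, from -0.60 to 0.30.

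Among the erasers of H3K4, all 3 listed KDM5 genes and both KDM1 genes had negative fold changes, as had 5247 of all 10286 tested genes. KDM1B was near 0, at -0.06 (SE 0.12, limma adjusted p = 0.82), and came to 0.014 without NC replicate 3. KDM5C, an X-linked gene of intellectual disability, was at 7.82, 7.86 and 8.16 FPKM in mimics libraries and at 11.1, 10.7 and 8.75 FPKM in NC libraries. The groups did not overlap, and NC replicate 3 was again the NC library nearest to the mimics. KDM5C had a log2 fold change of -0.32 (SE 0.10, limma adjusted p = 0.25), against -0.41 without NC replicate 3 (adjusted p = 0.026) and -0.23 with GC correction (adjusted p = 0.14).

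KDM5B (JARID1B), often abundant in carcinomas, was at 13.6, 12.7 and 12.9 FPKM in mimics libraries and at 16.2, 15.2 and 14.2 FPKM in NC libraries, again without overlap. Its log2 fold change was -0.20 over all libraries and with GC correction (SE 0.08, limma adjusted p = 0.31 over all libraries). KDM5A, first found as a partner of the retinoblastoma protein, was at 8.31 ± 0.261 FPKM in mimics and 9.11 ± 0.913 FPKM in NC libraries (SD, n = 3), and these groups overlapped. The summed level of the 3 genes was 29.7, 28.7 and 29.6 FPKM in mimics libraries and 36.5, 34.1 and 32.9 FPKM in NC libraries, with no overlap.

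KDM1A was at 35.2, 34.8 and 34.8 FPKM in mimics libraries and at 37.2, 41 and 38.2 FPKM in NC libraries. The mimics libraries were within 0.694% of each other as a coefficient of variation, and all lay below the NC libraries. KDM1A had a log2 fold change of -0.15 (SE 0.07, 95% interval -0.30 to 0.01, limma adjusted p = 0.37), and NC replicate 3 lay between the other NC libraries.

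KDM4A, a JmjC eraser of H3K9 and H3K36 trimethylation, had the second smallest p of the 41 genes. It was at 11.7, 11.4 and 11.1 FPKM in mimics libraries and at 14.4, 14.4 and 13.1 FPKM in NC libraries, with no overlap. The log2 fold change was -0.27 (SE 0.07, 95% interval -0.45 to -0.10, limma adjusted p = 0.21). It was -0.31 without NC replicate 3 (adjusted p = 0.030) and -0.23 with GC correction (adjusted p = 0.085), and the adjusted p ranged from 0.030 to 0.56 over the alternatives. KDM4A (ENSG00000066135.12_2) lies at chr1:44115829-44171186 on the plus strand of GRCh37.

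The other KDM4 genes overlapped between groups. KDM4B, 1 of the 2 genes with a seed match in the 3' UTR, was at 2.10, 1.89 and 2.07 FPKM in mimics libraries and at 2.92, 2.41 and 1.99 FPKM in NC libraries. NC replicate 3 lay inside the mimics range, and the log2 fold change was -0.18 (SE 0.11, limma adjusted p = 0.49), or -0.06 with GC correction. KDM4C, amplified in some oesophageal carcinomas, was at 4.64 ± 0.197 FPKM in mimics and 4.71 ± 0.530 FPKM in NC libraries (SD, n = 3).

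Erasers of H3K27 overlapped between groups. KDM6B (JMJD3), the other gene with a 3' UTR match, was at 5.30, 5.25 and 5.11 FPKM in mimics libraries and at 5.23, 6.98 and 4.50 FPKM in NC libraries. All mimics values lay within the NC range, with a log2 fold change of -0.06 (SE 0.14, 95% interval -0.39 to 0.27). KDM6A (UTX), the X-linked counterpart and a tumour suppressor, was at 5.63 ± 0.263 FPKM in mimics and 5.17 ± 0.240 FPKM in NC libraries (SD, n = 3), with a log2 fold change of 0.10 (SE 0.08).

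The KDM2, KDM3 and KDM7 genes, erasers of H3K36, H3K9 and H3K27 methylation by family, had no member with separated groups. KDM2A was at 9.56 ± 0.399 FPKM in mimics and 9.19 ± 1.3 FPKM in NC libraries, and KDM2B, which also brings Polycomb complexes to CpG islands, at 2.29 ± 0.0667 FPKM in mimics and 2.42 ± 0.0710 FPKM in NC libraries. KDM3A, an H3K9 eraser induced by hypoxia, was at 3.02 ± 0.154 FPKM in mimics and 3.04 ± 0.346 FPKM in NC libraries. KDM3B was at 13.3 ± 2.11 FPKM in mimics and 14.5 ± 2.07 FPKM in NC libraries, and KDM7A at 5.74 ± 0.118 FPKM in mimics and 5.37 ± 1.3 FPKM in NC libraries (SD, n = 3 for each gene and group).

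**Figure D3:**
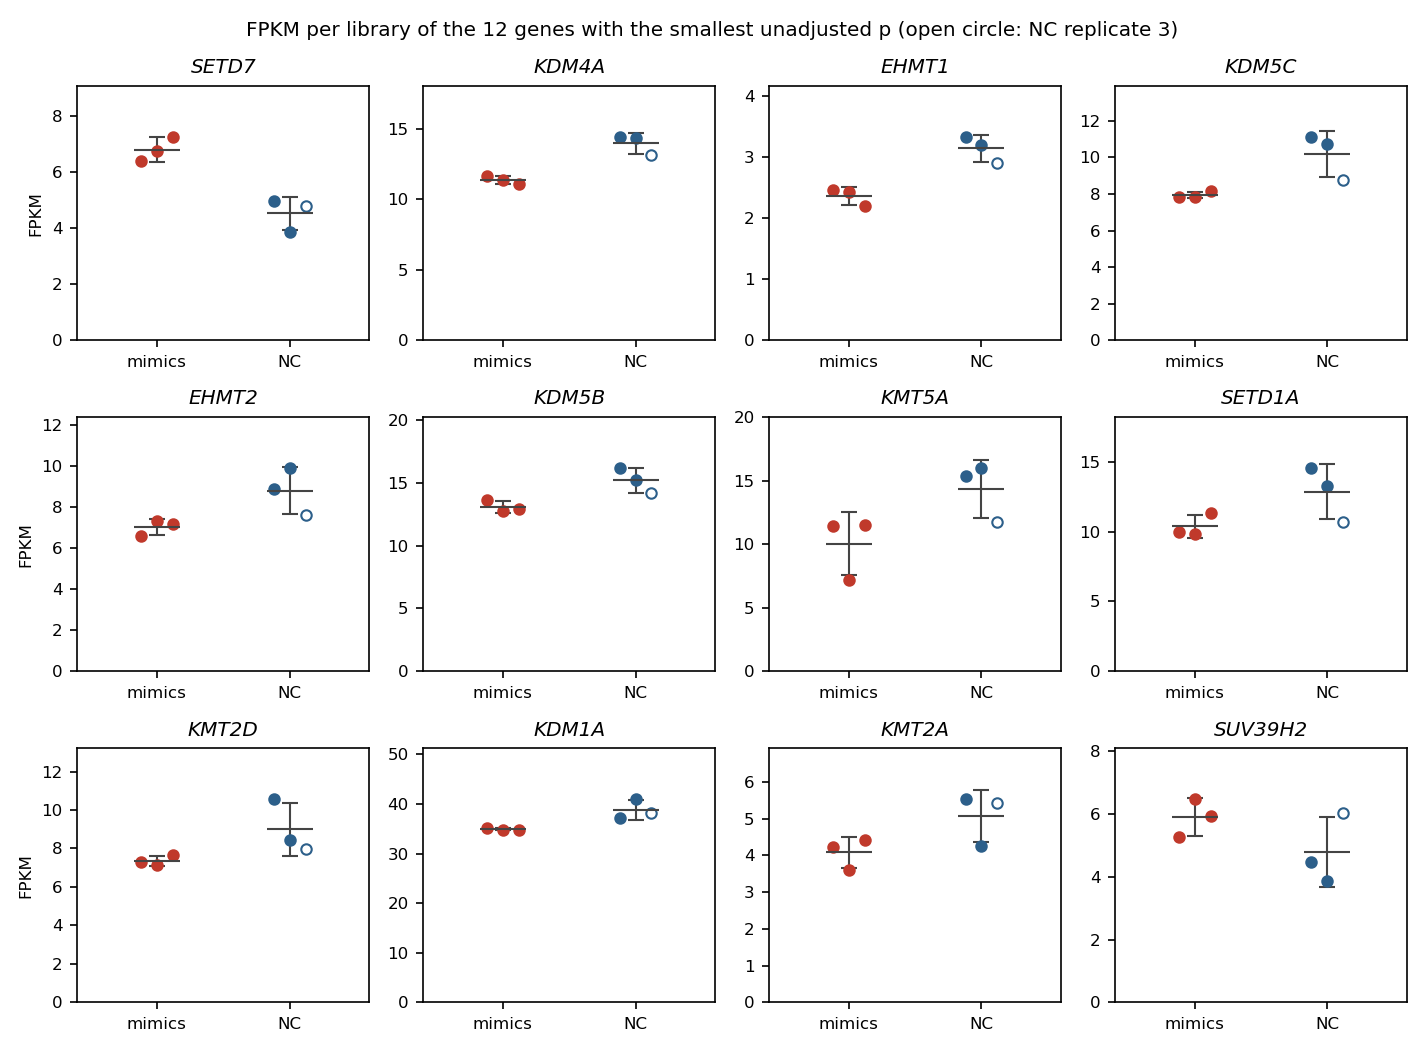
FPKM per library of the 12 tested genes with the smallest unadjusted p, mimics left (red) and NC right (blue), axes from 0; bars are the mean ± SD of 3 libraries, and the open circle is NC replicate 3. In SETD1A, KMT5A, KDM5C and EHMT2 the open circle lies below the other NC points and next to the mimics, while in SETD7 and KDM1A it lies between the other NC values.

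The fold changes of these genes followed the GC content of their transcripts, as did those of all genes. Across the 41 genes Spearman's rho between GC content and log2 fold change was -0.62, and across the 10213 tested genes with a transcript sequence it was -0.50. Genes are not independent replicates, and all points come from the same 6 libraries. Of the 20 genes above the median GC content of tested transcripts, 49.1%, 18 were lower in mimics libraries (90.0%, against 71.0% of all tested genes above it), with a median of -0.18 against -0.09. Of the 21 genes at or below it, 10 were lower (47.6%, against 31.0%), with a median of 0.0011 against 0.08. The distance of NC replicate 3 from NC replicates 1 and 2 followed GC content as well (rho -0.73 over the 41 genes), with a median log2 difference of -0.21 above the bound and 0.18 at or below it.

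With GC correction, in which a smooth trend on GC content was taken out of each library, 0 of 41 genes passed, against 1.05% of the genes tested (0.627% higher and 0.421% lower), and the median of the 41 was -0.04. The smallest limma adjusted p was then 0.065, that of SETD7. KMT5A, KDM5B, KDM4A and SETD7 kept log2 fold changes of -0.45, -0.20, -0.23 and 0.45, while SETD1A, EHMT2 and KMT2D came to -0.15, -0.17 and -0.15. Others grew: KDM5A went from -0.11 to -0.19 and KMT5B from -0.12 to -0.23 (limma adjusted p of 0.15 and 0.28 with GC correction). The 11 genes with a coding seed match had a median of -0.12 against -0.04 in the others of the 41, and with GC correction -0.06 against -0.03. Over all tested genes the medians with and without a coding match were -0.097 and 0.011, and with GC correction -0.025 and 0.0045. What part GC content and NC replicate 3 have in these differences was not tested.

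**Figure D4:**
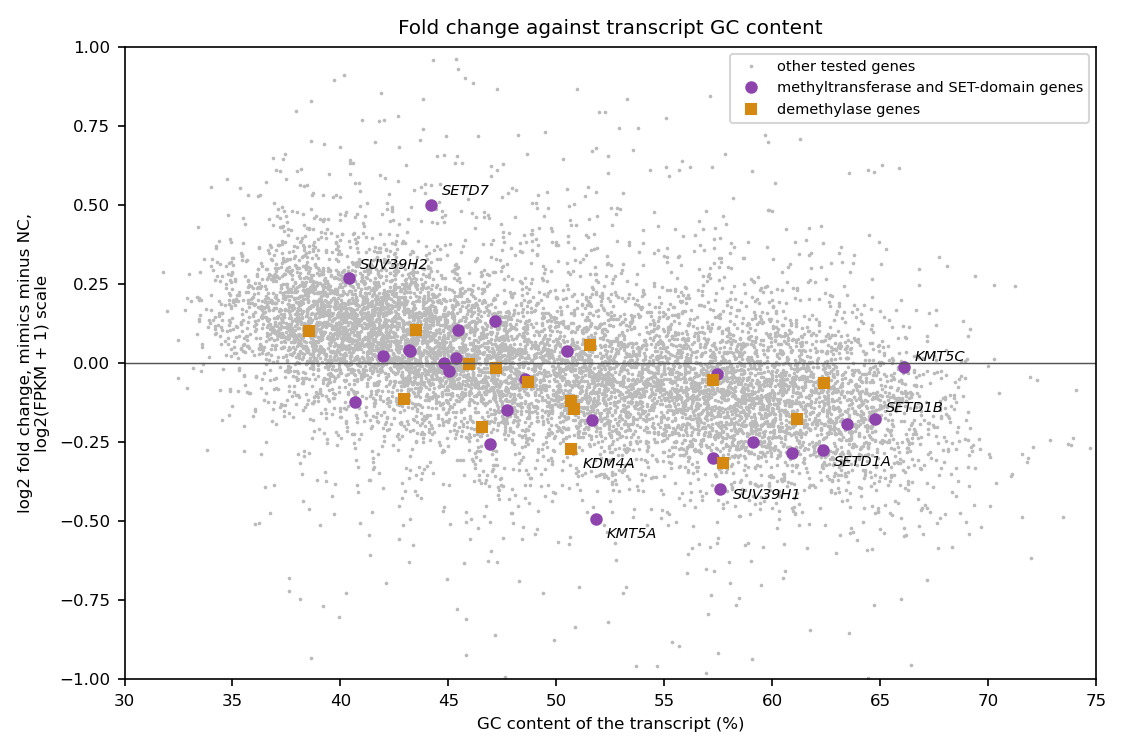
Log2 fold change (mimics minus NC, log2(FPKM + 1) scale) against the GC content of the transcript in percent, 1 point per tested gene, with writers as purple circles and erasers as orange squares over all other tested genes in grey; 26 of 10213 genes lie outside the axes. The cloud slopes down to the right, the purple and orange points follow it, and SETD7 and KMT5A lie farthest from 0 above and below it.

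Replicates of the mimics group were closer to each other than those of NC. The median coefficient of variation over the 41 genes was 5.58% in mimics libraries and 13.9% in NC libraries, or 10.0% between NC replicates 1 and 2. The highest library was over 1.5 times the lowest in 4 genes in the mimics group (SUV39H1, NSD2, KMT5A and SETD5) and in 8 genes in the NC group. The erasers as a whole summed to 139, 131 and 133 FPKM in mimics libraries and to 150, 149 and 142 FPKM in NC libraries, without overlap. The writers and related SET-domain genes summed to 171, 175 and 186 FPKM in mimics libraries and to 203, 177 and 192 FPKM in NC libraries, with overlap through NC replicate 2.

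Partners and relatives of these enzymes were examined as 9 lists with 97 tested genes, of which 0 passed (limma, against 0.408% of all tested genes) and 15 had an unadjusted p under 0.05 (14.6% of all tested genes did). Without NC replicate 3, 3 of the 97 were higher and 7 lower (10.3%, against 14.8%). Among 13 tested subunits of COMPASS and MLL complexes, 10 were lower, with a median of -0.11. Over all 10286 tested genes, 5247 were lower. The scaffold WDR5 was at 27.1 ± 0.841 FPKM in mimics and 31.6 ± 2.27 FPKM in NC libraries, ASH2L at 10.1 ± 0.900 FPKM in mimics and 11.9 ± 0.962 FPKM in NC libraries, and the host cell factor HCFC1 at 15 ± 2.81 FPKM in mimics and 20.4 ± 2.55 FPKM in NC libraries (SD, n = 3 each). The limma adjusted p of WDR5 was 0.29 over all libraries, 0.036 without NC replicate 3 and 0.20 with GC correction.

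The 9 PRC2 subunits had a median of 0.04, with 5 higher and 4 lower. The core subunit EED was at 4.97 ± 0.230 FPKM in mimics and 4.18 ± 0.553 FPKM in NC libraries (SD, n = 3), with overlap. EED had a log2 fold change of 0.21 (SE 0.10, limma adjusted p = 0.39), or 0.075 with GC correction. EPOP and RBBP4 were lower, at -0.26 and -0.17 (limma adjusted p of 0.37 and 0.39). EPOP came to -0.38 without NC replicate 3 (adjusted p = 0.040) and to -0.12 with GC correction. RBBP4 had groups without overlap and came to -0.27 with GC correction. The 17 PRC1 subunits had a median of 0.02, and PHC2, a Polyhomeotic protein, was at 9.24 ± 0.797 FPKM in mimics and 12.7 ± 1.11 FPKM in NC libraries (SD, n = 3 each). PHC2 had a log2 fold change of -0.42 (SE 0.10, limma adjusted p = 0.16), against -0.49 without NC replicate 3 (adjusted p = 0.031) and -0.32 with GC correction (adjusted p = 0.088). PCGF2, of the same list, was higher in mimics libraries, with a log2 fold change of 0.30 (SE 0.12, limma adjusted p = 0.32). The 8 genes of the CoREST complex, in which KDM1A works, had a median of -0.09, with the scaffold RCOR1 at 15.7 ± 0.807 FPKM in mimics and 18.7 ± 0.925 FPKM in NC libraries (SD, n = 3 each).

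Of 12 lysine methyltransferases under other names, 6 were lower (median 0.0088). DOT1L, which methylates H3K79, was at 2.88 ± 0.101 FPKM in mimics and 4.18 ± 0.762 FPKM in NC libraries (log2 fold change -0.41, SE 0.12, limma adjusted p = 0.22). DOT1L came to -0.51 without NC replicate 3 (adjusted p = 0.030) and to -0.28 with GC correction (adjusted p = 0.17). Of 10 JmjC proteins under other names, 7 were lower (median -0.08), with the erasers PHF8 at 2.13 ± 0.183 FPKM in mimics and 2.88 ± 0.530 FPKM in NC libraries and PHF2 at 6.69 ± 0.704 FPKM in mimics and 8.08 ± 0.492 FPKM in NC libraries (SD, n = 3 each). The 9 genes of arginine methylation had a median of 0.01, and PRMT6 was at 12.2 ± 0.643 FPKM in mimics and 10.2 ± 0.111 FPKM in NC libraries. The 9 HP1 and heterochromatin genes had a median of 0.04, with the corepressor TRIM28 at 69.6 ± 4.76 FPKM in mimics and 83.9 ± 8.03 FPKM in NC libraries. The 10 genes of DNA methylation had a median of -0.08, with the maintenance enzyme DNMT1 at 18.2 ± 0.144 FPKM in mimics and 22 ± 1.61 FPKM in NC libraries (SD, n = 3 each). TRIM28 and DNMT1 had limma adjusted p of 0.27 and 0.22 over all libraries, of 0.049 and 0.028 without NC replicate 3, and of 0.44 and 0.14 with GC correction. CBX1 and TET2, from the same lists, were higher in mimics libraries, with groups that overlapped. Their log2 fold changes were 0.19 and 0.27 (limma adjusted p of 0.33 and 0.46). Without NC replicate 3 they were 0.26 and 0.45 (adjusted p of 0.038 and 0.030), and with GC correction 0.20 and 0.20 (adjusted p of 0.21 and 0.45). Of the HP1 and heterochromatin genes 5 were higher and 4 lower, and of those of DNA methylation 4 and 6.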

How the data were processed

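The values are FPKM as the authors deposited them, 1 column for each of 6 libraries in 1 table of 11187 protein-coding genes. The submitters' processing notes name StringTie 1.3.3, cutadapt and GRCh37, and libraries were made with a stranded kit per the labels' protocols. Aligner, annotation release and strand setting: not given in the sources used here. Whole reads could not be recovered, since at most 3 of 312 low genes shared a ratio between libraries, so depth is unknown. Groups and replicate numbers came from the titles. Genes with a mean of at least 1 FPKM (10286) were compared as log2(FPKM + 1) by limma 3.58.1 (R 4.3.3; two-sided, prior variance following mean level), and p-values were adjusted (Benjamini-Hochberg) over all genes tested. Alternatives were other pseudocounts, filters and scalings, each library left out, a replicate block, and a lowess correction for transcript GC content per library. This scale understates the change of low genes. The fit was tested on simulated data. Noise was drawn for each gene alone, without a GC trend or any other effect shared within a library. The rates hold for that setting only. The fit called 92 of 100 simulated log2 changes of 1 and 35 of 100 of 0.5, and 9 of 10086 unchanged genes. Real changes of 0.5 or less could thus often be missed. Transcript GC content (99.3% of tested genes), exons and seed matches came from GENCODE v29 on GRCh38, gene positions from the deposited table on GRCh37. Named genes were all members, with values by library for the 12 of smallest p, the 3 most abundant and others singled out after their values were seen, and up to 3 genes of smallest p from each related list. Members and lists were chosen with earlier results of these data known. No raw counts were used, so no count model was run.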

Additional observations from a re-analysis of the deposited data

How the results depend on the processing

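Of these genes, 0 passed the threshold under 16 of the 17 alternatives. The exception was the fit without NC replicate 3, with 6, so that leaving out 1 library gave 0 to 6. For the related lists the range was 0 to 10, again with NC replicate 3 left out at the upper end. Over all tested genes the count was 42, it was 8 to 1527 when 1 library was left out, 107 with GC correction and 122 with GC correction without NC replicate 3. Samples with the same replicate number did not deviate together (correlations 0.039, -0.042 and 0.068), so the numbers were not taken to pair them. A replicate block gave 11 genes, and a replicate block with GC correction 12, with 0 of the 41 genes in either. The median of the genes fitted stayed negative under all 17 alternatives. The genes were not the same 41 in each. Without a filter KDM4D and KDM8 were taken in (median -0.055), and with a mean of at least 5 FPKM lower genes were left out (median -0.088).

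Single genes were followed through 686 values, of which 63 had the opposite sign, in 19 genes. The largest of these 19 genes over all libraries was NSD2, at -0.18. With GC correction, with or without the replicate block, the reversed values were -0.033 for EZH2, 0.031 for KDM2B, 0.067 for KDM6B, -0.038 for KDM7A, -0.028 for KMT2E, 0.15 for KMT5C, -0.069 for NSD3, -0.030 for SETD2, -0.0067 for SETD3 and 0.052 for SETD6. With GC correction and without NC replicate 3 they were -0.045 for EZH2, 0.045 for KDM1B, 0.073 for KDM2B, 0.026 for KDM3A, 0.035 for KDM4C, -0.021 for KDM6A, 0.022 for KDM6B, -0.00051 for KDM7A, 0.017 for KMT2C, 0.17 for KMT5C, 0.059 for NSD2, -0.028 for NSD3, -0.092 for SETD2, -0.025 for SETD3, 0.00095 for SETD5 and 0.14 for SETD6. With quantile normalization KDM3A came to 0.017. Leaving out 1 library moved EZH1 between -0.040 and 0.087, EZH2 between -0.057 and 0.039, KDM1B between -0.18 and 0.014, KDM2A between -0.020 and 0.16, KDM3A between -0.069 and 0.056, KDM4C between -0.094 and 0.033 and KDM6B between -0.18 and 0.087. It moved KDM7A between -0.030 and 0.26, KMT2C between -0.14 and 0.076, KMT2E between -0.097 and 0.18, KMT5C between -0.095 and 0.053, NSD3 between -0.10 and 0.14, SETD2 between -0.19 and 0.27 and SETD3 between -0.017 and 0.036. The cause was not tested. Depth is unknown, so no limit from counting error can be given.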

Other observations

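Ratios between paralogs, which do not depend on the library total, were looked at after the values had been seen and carry no test. A trend on GC content within a library does not cancel in them where the paralogs differ in GC content. SUV39H1 and SUV39H2 had 57.6% and 40.4% GC, KMT2D and KMT2C 59.1% and 45.0%, and KDM4A and KDM4C 50.7% and 47.2%. What part GC content has in these ratios was not tested. SUV39H1 over SUV39H2 was 0.489, 0.401 and 0.898 in mimics libraries and 1.18, 1.42 and 0.602 in NC libraries, so that mimics replicate 3 and NC replicate 3 crossed over. KMT2D over KMT2C was 1.51, 1.46 and 1.47 in mimics libraries and 2.04, 2.02 and 1.33 in NC libraries, with NC replicate 3 below the mimics. KDM4A over KDM4C was 2.41, 2.49 and 2.49 in mimics libraries and 2.92, 3.51 and 2.58 in NC libraries, the ratio among the 15 examined whose groups did not overlap. EZH2 over EZH1 lay between 4.84 and 5.77 in all 6 libraries.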
